A study of Mus musculus with 24 samples.

Results

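The Nr4a nuclear receptors (Nr4a1, Nr4a2 and Nr4a3) and 7 immediate early genes (Fos, Fosb, Jun, Junb, Egr1, Ier2 and Myc) were followed in mouse gastrocnemius, the large calf muscle. These 10 genes, of 36172 gene models in the tables, were chosen by their known roles and by their measured values in all 24 libraries, so no result below is independent evidence of how they were picked. The study covered 6 groups of 4 libraries from C57BL/6 mice. WT stands for mice with floxed Notch2 (Notch2f/f) and no Cre. Notch2-mKO mice had in addition 1 Mlc1fCre allele (Mlc1fCre/+;Notch2f/f), whose Cre is active in skeletal muscle fibres, so that other cells of the muscle keep Notch2. Each genotype was studied untreated (control), after 7 days of unloading by hindlimb suspension, and 14 days after 1 dose of streptozotocin at 150 mg per kg (diabetes), a toxin of insulin-producing cells. Untreated and treated mice of 1 genotype share the same alleles, and the labels give no vehicle injection for the controls and no ages. Whether each replicate was a different animal is not stated, and the p-values therefore reflect only how far these samples spread, which may be partly technical.

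Immediate early genes are switched on by transcription factors already present in the cell, such as CREB and SRF, without new protein synthesis, and their mRNAs decay fast. In muscle they respond to contraction, hormone and stress signals, and Nr4a receptors, which act without a known natural ligand, regulate genes of glucose and fat metabolism. Fos and Jun proteins pair to form AP-1, Egr1 is a zinc finger activator, Ier2 is a short-lived nuclear protein, and Myc pairs with Max to drive growth genes.

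The libraries held between 33112459 and 56369917 estimated counts. The filter on low counts left 13048 genes, all 10 members among them. Notch2, counted over the whole gene, ranged from 1.34 to 3.18 counts scaled to library size (CPM) in WT libraries and from 1.15 to 2.55 CPM in Notch2-mKO libraries; such a count includes other cells and undeleted exons and does not check the genotype labels. The 7 fibre markers summed to between 131478 and 294955 CPM, as a muscle sample should, while neutrophil markers reached at most 3.24 CPM in sum. Libraries also differed along base composition: the mean log2 level of AT-rich genes minus that of GC-rich genes ran from -0.71 to -0.14 in WT controls, from 0.28 to 0.41 in WT unloading and from 0.15 to 0.41 in WT diabetes. The gap was smaller in Notch2-mKO, from -0.45 to 0.03 in controls, from -0.16 to 0.23 in unloading and from -0.01 to 0.24 in diabetes. Values with this trend removed are given for each member whose call they change, and as counts for the gene lists.

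Per kilobase of transcript, Nr4a1 was the most abundant of the 10, at a mean of 57.5 CPM per kb over the 24 libraries. Jun followed at 26.6 CPM per kb. Junb (3.58), Ier2 (2.55), Fos (1.28) and Myc (1.04 CPM per kb) came next, then Egr1 (0.756), Nr4a3 (0.477), Fosb (0.108) and Nr4a2 (0.0908 CPM per kb). The 3 receptors therefore spanned the whole range. The genes also differed in how far replicate libraries spread: the median coefficient of variation within a group was 18.3% for Ier2, 23.04% for Nr4a1 and 23.4% for Jun, against 67.4% for Fos and 74.1% for Fosb. Nr4a3 had the widest range among genes detected in every library, its highest value being 52.0 times its lowest, whereas Nr4a1 varied by 3.27 times.

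**Figure D1:**
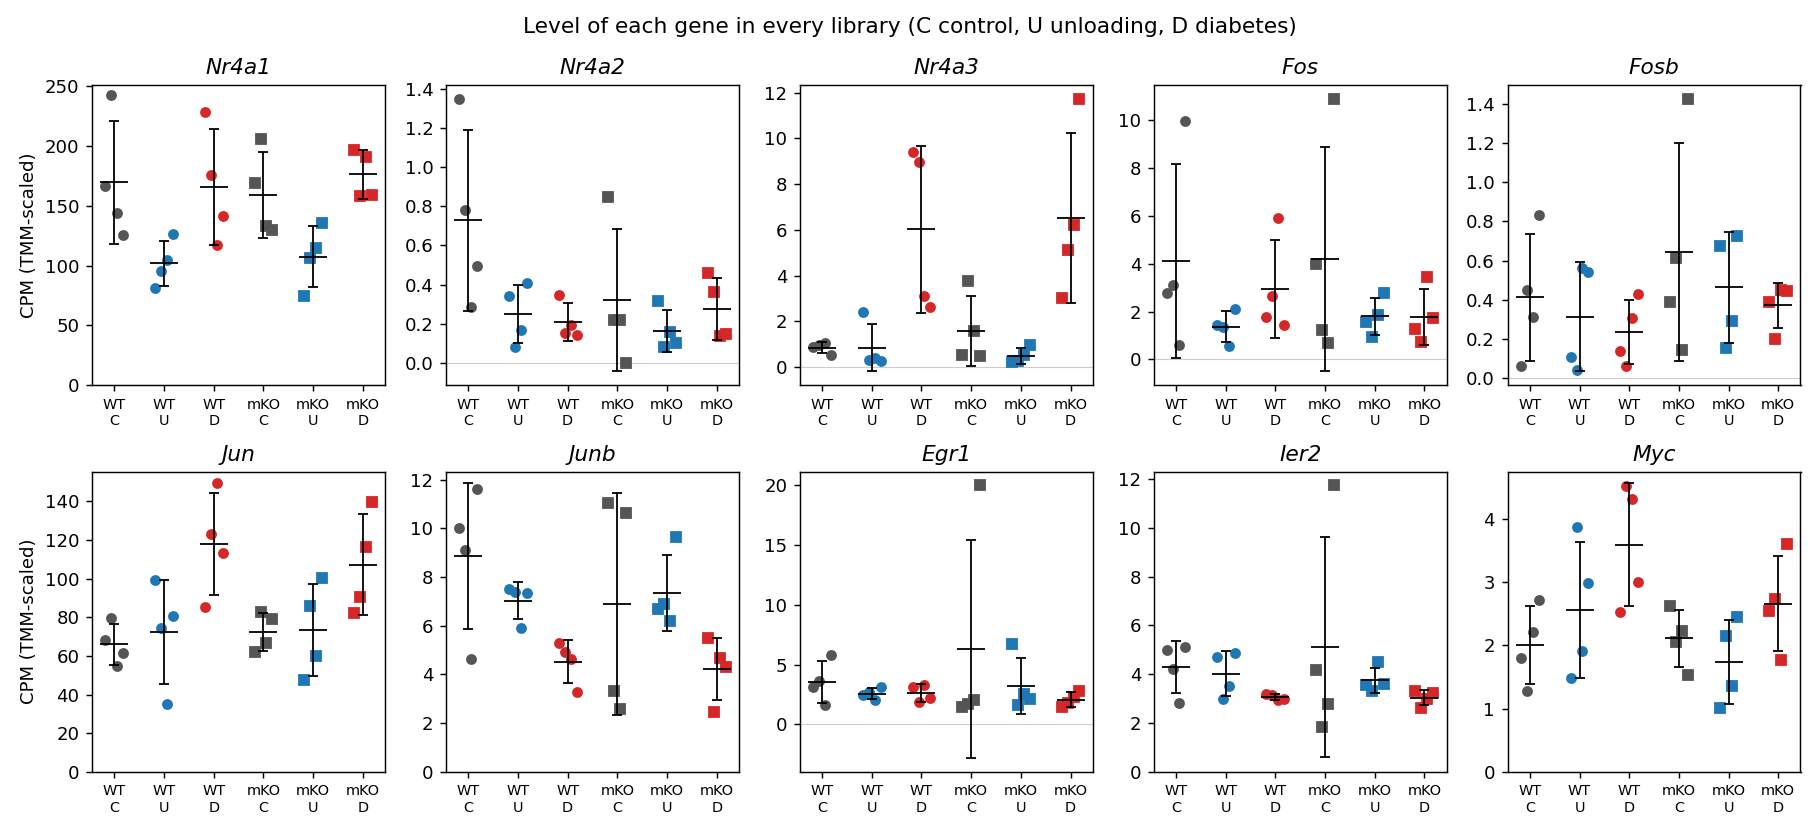
Level of each of the 10 genes in every library, in TMM-scaled CPM on a linear axis; circles are WT, squares Notch2-mKO, grey control (C), blue unloading (U), red diabetes (D); black lines are the mean ± SD of 4 libraries. Nr4a3 is high in the red groups (2.61 to 11.7 CPM), Nr4a1 low in the blue ones (74.4 to 135 CPM), and 1 Notch2-mKO control stands far above the rest in Egr1 (19.98 CPM).

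The promoters of the Nr4a receptors are shown because all 3 carry repeated copies of the short core to which CREB, the factor activated by cyclic AMP, binds. The sequences are the 250 bases before a RefSeq start in GRCm38.p6, on the strand of the gene, 5′ to 3′. For Nr4a3, only the 98 bases before the first GENCODE exon in the window are shown. By the outer RefSeq coordinates, the Nr4a1 window lies inside its gene (101253902 to 101274795), so that start is an internal one. The Nr4a3 window begins before the first base of its gene (48045078) and runs into the gene. Capitals mark the CRE half-site TGACG on either strand, CGTCA being its reverse.
Nr4a1, chr15:101266596-101266845, plus strand: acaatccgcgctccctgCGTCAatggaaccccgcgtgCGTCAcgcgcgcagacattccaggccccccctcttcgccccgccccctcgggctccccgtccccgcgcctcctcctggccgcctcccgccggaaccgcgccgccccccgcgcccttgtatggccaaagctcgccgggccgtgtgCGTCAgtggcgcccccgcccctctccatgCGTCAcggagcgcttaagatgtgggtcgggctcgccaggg
Nr4a2, chr2:57124004-57124253, minus strand: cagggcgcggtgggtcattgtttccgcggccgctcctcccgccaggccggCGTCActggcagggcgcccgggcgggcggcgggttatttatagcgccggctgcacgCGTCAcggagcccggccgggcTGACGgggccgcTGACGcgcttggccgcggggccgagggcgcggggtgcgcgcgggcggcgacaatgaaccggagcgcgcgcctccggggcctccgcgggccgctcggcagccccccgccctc
Nr4a3, chr4:48045055-48045152, plus strand: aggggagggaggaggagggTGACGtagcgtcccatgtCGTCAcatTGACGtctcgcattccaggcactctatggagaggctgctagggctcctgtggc
Fos, chr12:85473640-85473889, plus strand: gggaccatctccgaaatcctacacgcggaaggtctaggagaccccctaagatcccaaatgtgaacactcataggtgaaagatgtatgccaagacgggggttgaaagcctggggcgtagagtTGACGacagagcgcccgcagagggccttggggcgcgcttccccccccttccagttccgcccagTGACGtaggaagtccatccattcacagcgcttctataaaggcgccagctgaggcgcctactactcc

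Each of the 3 Nr4a promoters held 4 half-sites in its 250 bases, a number reached by 0.137% of the 32851 promoters of that length in the RefSeq table (17.8% held at least 1). The Nr4a3 window overlaps GENCODE exons, and only 3 of its 4 half-sites lie in the printed bases before them. These bases reach into the RefSeq gene. Fos held 2, Fosb and Junb held 1 each and Jun held none, of the 7 members with a promoter in the table. No member's window held the full palindrome TGACGTCA (in 1.55% of promoters, each also scored as a half-site), the AP-1 site TGANTCA (6.75%), the Nr4a site AAAGGTCA (1.34%) or a CArG box, the site of SRF (1.47%). The Egr site GCGNGGGCG was found in Nr4a1, Nr4a2 and Fosb (4.70% of promoters), and the FOXO site TGTTTAC in Junb (3.17%). All motifs were searched on both strands of the 7 windows, and Egr1, Ier2 and Myc were not searched. These are letter matches only, and the shares are over promoters of any base composition.

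Nr4a1 (Nur77; gene at chr15:101253902-101274795, GRCm38.p6) was lower after unloading than in controls. In WT controls it measured 167, 243, 144 and 126 CPM in replicates 1 to 4, and in WT unloading 81.5, 95.2, 105 and 126 CPM. The first 3 unloaded libraries lay below every control, and replicate 4 was level with the lowest control. Nr4a1 fell by 0.74 (SE 0.21) on the log2 scale, with an adjusted p of 0.00947 by edgeR's quasi-likelihood test. It was the only one of 10 members to pass in this comparison, where 16.3% of all genes tested passed as lower and 18.4% as higher; 0 of 10 passed as higher. The members' share was thus no larger than that of the genome. The median log2 difference of the members was -0.38, beside -0.02 for all genes.

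The Nr4a1 call in WT unloading rested on 1 control and on the library trend. Without WT control replicate 2, the highest library, the difference was -0.52 (adjusted p = 0.0640), and with the trend on base composition and length removed it was -0.43 (adjusted p = 0.115). The 5 endothelial markers, of which 1 passed as lower, summed to 178 to 248 CPM in WT controls and 138 to 172 CPM in WT unloading. The 3 tendon markers, of which 2 passed as lower, summed to 144 to 202 CPM against 36.7 to 91.6 CPM. Of these, Fmod averaged 162 and 48.0 CPM, and Scx, which did not pass, 7.47 and 7.58 CPM. The 4 macrophage markers tested, of which 2 passed as lower, summed to 42.1 to 51.3 CPM against 31.2 to 39.9 CPM. The 7 fibre markers, of which 2 passed as lower (1 with the trend removed), summed to 243174 to 294955 CPM against 167511 to 218685 CPM. In the other direction, 1 of 5 satellite cell markers and 1 of 3 Schwann cell markers passed as higher. Fibroblast and pericyte markers each had 1 higher and 1 lower call. The part of these cells in the difference was not tested. In bulk tissue, fewer cells of a type and less RNA per cell cannot be told apart.

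The same gene measured 169, 206, 133 and 130 CPM in Notch2-mKO controls and 74.4, 106, 115 and 135 CPM after unloading. Only replicate 4 of the unloaded libraries reached into the range of the controls. The log2 difference of -0.57 (SE 0.21) had an adjusted p of 0.0972 and did not pass. No member passed in Notch2-mKO unloading, in either direction, where 4.11% of genes passed as higher and 3.2% as lower; at an unadjusted p under 0.05 there were 2 members, Nr4a1 and Nr4a3, beside 24.7% of all genes.

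In diabetes Nr4a1 stood near its control level. WT diabetes libraries held 229, 176, 117 and 142 CPM, for a log2 difference from control of -0.03 (SE 0.21), and Notch2-mKO diabetes libraries held 197, 158, 191 and 159 CPM, for a difference of 0.15 (SE 0.21). The 95% intervals of these differences ran from -0.45 to 0.38 and from -0.27 to 0.56. Set against unloading, the diabetic libraries were higher by 0.70 (SE 0.21, adjusted p = 0.0674) in WT and by 0.71 (SE 0.21, adjusted p = 0.0695) in Notch2-mKO, where the 2 groups did not overlap. With the trend removed, the Notch2-mKO difference was 0.76 with an adjusted p of 0.0351.

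Nr4a3 (Nor1; chr4:48045078-48086447) had another pattern: it was high in diabetes. WT controls held 0.870, 0.973, 1.08 and 0.526 CPM, and WT diabetes libraries 9.39, 8.99, 3.12 and 2.61 CPM. Every diabetic library was above every control, with replicates 1 and 2 well above replicates 3 and 4. The log2 difference was 2.79 (SE 0.66, 95% interval 1.503 to 4.08), or 6.92-fold, and stayed between 2.496 and 3.04 when any 1 of the 8 libraries was left out. This difference was among the values by which the genes were chosen and is given as a description.

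In Notch2-mKO the Nr4a3 controls held 0.520, 3.76, 1.60 and 0.501 CPM and the diabetic libraries 3.05, 5.11, 6.22 and 11.7 CPM. Control replicate 2 lay within the range of the diabetic libraries, and the other 3 controls lay below all of them. The difference of 2.02 (SE 0.61), or 4.06-fold, had an adjusted p of 0.0561. Without control replicate 2 it was 2.90 with an adjusted p of 0.0287. No member passed in Notch2-mKO diabetes, in either direction, where 3.05% of genes passed as higher and 2.54% as lower; 4 members had an unadjusted p under 0.05, namely Nr4a3, Jun, Egr1 and Ier2, beside 22.1% of all genes.

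Unloading gave no such level of Nr4a3. WT unloading libraries held 2.42, 0.329, 0.419 and 0.271 CPM, so that replicate 1 stood apart from the other 3, all of which were below every WT control. The log2 difference from control was 0.01 (SE 0.71), and -1.33 (adjusted p = 0.176) without replicate 1. Notch2-mKO unloading libraries held 0.226, 0.261, 0.542 and 0.991 CPM, for a difference of -1.63 (SE 0.71, adjusted p = 0.148), which was -0.77 without Notch2-mKO control replicate 2.

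Diabetes and unloading were then set against each other. Control levels do not enter this difference, but control libraries enter the filter, scaling and spread of the shared fit. Nr4a3 was the only member to pass in either genotype. In WT it was higher in diabetes by 2.79 (SE 0.64, adjusted p = 0.0167), where 2.31% of genes passed as higher and 1.24% as lower. The WT value grew to 4.12 (adjusted p = 0.00195) without unloading replicate 1. It lost its call without unloading replicate 2, 3 or 4 (adjusted p = 0.0635, 0.0585 and 0.0549) or diabetes replicate 2 (adjusted p = 0.0547). The call was also lost with only the compared groups in the fit (adjusted p = 0.0619). In each of these fits the difference was at least 2.51. In Notch2-mKO it was higher by 3.65 (SE 0.68, adjusted p = 0.0039), or 12.6-fold, where 1.95% of genes passed as higher and 1.12% as lower, the groups did not overlap, and every leave-one-out fit kept the call (3.21 to 4.24). The WT diabetes libraries that enter this comparison also enter the comparison with controls. Because the genes were chosen by their values in all 24 libraries, these adjusted p-values only place Nr4a3 against the threshold. They are a description and no independent support.

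Nr4a2 (Nurr1; chr2:57106830-57124003) was barely detected. WT controls held 1.35, 0.783, 0.283 and 0.495 CPM, WT unloading 0.339, 0.0822, 0.167 and 0.407 CPM, and WT diabetes 0.348, 0.150, 0.192 and 0.143 CPM. WT control replicates 1, 2 and 4 lay above all treated WT libraries. Nr4a2 fell by 1.81 (SE 0.70) on the log2 scale in WT diabetes, with an adjusted p of 0.0495. Without WT control replicate 1 the value was -1.33 (adjusted p = 0.199), and the call was also lost without control replicate 2 (adjusted p = 0.0884), without diabetes replicate 2, 3 or 4 (adjusted p between 0.104 and 0.116) and with the trend removed (adjusted p = 0.0553). In WT unloading the difference was -1.56 (SE 0.70, adjusted p = 0.0846). In Notch2-mKO, Nr4a2 lay between 0 and 0.845 CPM in controls, 0.0783 and 0.316 CPM in unloading and 0.135 and 0.457 CPM in diabetes. Its 0, in control replicate 4, allows up to 0.0751 CPM, the value of 3 counts in that library.

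Jun (chr4:95049036-95052222), the main activating partner in AP-1, was higher in diabetes. WT controls held 68.5, 79.7, 55.0 and 61.3 CPM and WT diabetes libraries 85.5, 123, 150 and 113 CPM, with no overlap. Jun rose by 0.83 (SE 0.25) on the log2 scale, or 1.78-fold, with an adjusted p of 0.0112, and passed in every leave-one-out fit (adjusted p from 0.00548 to 0.0488). With the trend removed the difference was 1.07 (adjusted p = 0.00229). Leaving aside Nr4a3, whose difference is only described, 2 of the other 9 members passed as higher in WT diabetes (Jun and Myc), where 17.8% of all genes passed, and 2 as lower (Nr4a2 and Junb), where 15.5% passed. These shares are near those of the genome. Several marker sums moved in the same comparison. The 7 fibre markers, of which 4 fell, went from 243174 to 294955 CPM in WT controls to 172299 to 226913 CPM in WT diabetes. With the trend removed, only 1 of the fibre markers was lower. The 3 tendon markers, of which 2 fell, went from 144 to 202 CPM to 43.9 to 84.9 CPM. The 5 satellite cell markers, of which 2 rose, went from 6.00 to 9.53 CPM to 9.02 to 15.5 CPM. The 2 tendon and 2 satellite cell calls were kept with the trend removed. The part of these cells was not tested.

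Notch2-mKO libraries held 62.2, 82.8, 66.6 and 78.9 CPM of Jun in controls and 82.1, 90.7, 117 and 140 CPM in diabetes. The groups touched at the lowest diabetic and highest control library. The difference of 0.56 (SE 0.25) had an adjusted p of 0.173. After unloading Jun ranged from 35.3 to 99.4 CPM in WT and from 47.5 to 100 CPM in Notch2-mKO, around its control level, with differences of 0.13 and 0.02 (SE 0.25 each).

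Junb (chr8:84976909-84978748), an AP-1 partner that often restrains Jun, was lower in diabetes. WT controls held 10.02, 9.11, 4.64 and 11.6 CPM, WT unloading 7.49, 7.40, 5.90 and 7.32 CPM, and WT diabetes 5.28, 4.92, 4.64 and 3.26 CPM. Only control replicate 3 reached down to the diabetic libraries. Notch2-mKO controls split into 11.03 and 10.6 CPM in replicates 1 and 4 and 3.30 and 2.57 CPM in replicates 2 and 3, and their difference to diabetes was -0.70 (adjusted p = 0.235). Junb fell by 0.97 (SE 0.34) on the log2 scale (adjusted p = 0.0337). The call was lost with the trend removed (-0.61, adjusted p = 0.223) and in 6 of the 8 leave-one-out fits, those without WT control replicate 1, 2 or 4 or WT diabetes replicate 2, 3 or 4 (adjusted p up to 0.0977). The diabetic libraries did not overlap the unloaded ones in WT, nor in Notch2-mKO, where diabetes held 5.48, 2.44, 4.69 and 4.28 CPM and unloading 6.68, 6.89, 6.19 and 9.63 CPM. Neither difference passed (-0.64, adjusted p = 0.365 in WT and -0.80, adjusted p = 0.252 in Notch2-mKO).

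Fos (chr12:85473890-85477274), the inducible AP-1 subunit, varied more between replicates than between groups. WT controls held 2.79, 3.11, 0.594 and 9.99 CPM and Notch2-mKO controls 3.99, 1.22, 0.678 and 10.9 CPM. WT unloading held 1.44, 1.36, 0.544 and 2.12 CPM, for a difference of -1.60 (SE 0.71, adjusted p = 0.0878), which passed without WT control replicate 3 (-1.98, adjusted p = 0.0374). WT diabetes held 1.78, 2.65, 5.92 and 1.45 CPM, Notch2-mKO unloading 1.58, 0.940, 1.87 and 2.79 CPM, and Notch2-mKO diabetes 1.26, 0.727, 3.43 and 1.72 CPM. Each of these groups overlapped its controls. The other 3 differences from control, -0.47 in WT diabetes, -1.21 in Notch2-mKO unloading and -1.23 in Notch2-mKO diabetes, had adjusted p of 0.633, 0.295 and 0.312. Without Notch2-mKO control replicate 4 the last 2 were -0.14 and -0.15. Fosb (chr7:19302696-19310118), its close relative, stayed between 0.0411 and 1.43 CPM, at 2 to 57 estimated counts a library, and passed in no comparison. Its highest library was Notch2-mKO control replicate 4, and every treated group overlapped its controls.

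**Figure D2:**
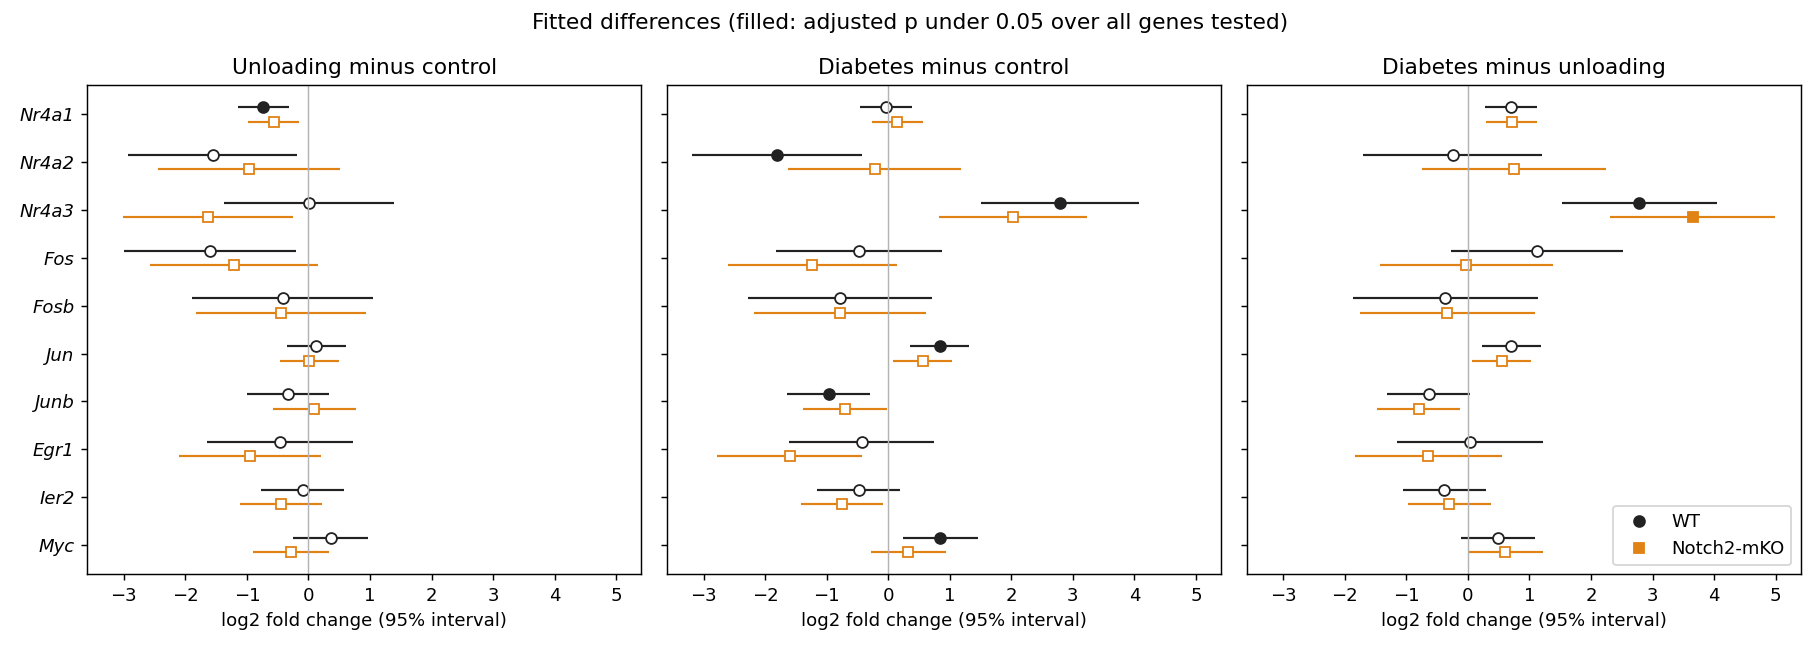
Fitted log2 fold change of each gene for unloading minus control, diabetes minus control and diabetes minus unloading; black circles are WT, orange squares Notch2-mKO, bars are 95% intervals, and filled symbols have an adjusted p under 0.05 over all 13048 genes. Nr4a3 lies far to the right in both diabetes panels (2.02 to 3.65) and Nr4a1 left of 0 in unloading (-0.74 and -0.57).

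Egr1 showed how much 1 library could weigh. Notch2-mKO controls held 1.45, 1.71, 2.06 and 19.98 CPM, while WT controls held 3.15, 3.61, 1.61 and 5.78 CPM. Replicate 4 of the Notch2-mKO controls was far above every other library. In Notch2-mKO unloading, replicate 1 was also apart at 6.68 CPM, beside 1.62, 2.51 and 2.10 CPM. The Notch2-mKO diabetes libraries held 1.41, 1.82, 2.25 and 2.81 CPM. The difference of -1.60 (SE 0.60, adjusted p = 0.116) became 0.26 without that control, and passed without Notch2-mKO control replicate 1 (-1.93, adjusted p = 0.0472). WT treated libraries lay between 1.84 and 3.32 CPM, with differences from control of -0.46 in unloading and -0.43 in diabetes (SE 0.61 and 0.60).

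Ier2 (chr8:84661331-84662852) and Myc (chr15:61985341-61990361) were expressed at a few CPM. Ier2 was even in WT diabetes, at 3.17, 3.17, 2.95 and 2.99 CPM, beside 5.01, 4.22, 2.83 and 5.10 CPM in WT controls, and its difference of -0.48 (SE 0.34) had an adjusted p of 0.298. In Notch2-mKO controls it measured 4.18, 1.82, 2.76 and 11.7 CPM, replicate 4 again being the highest, and in Notch2-mKO diabetes 3.31, 2.62, 2.98 and 3.25 CPM. That difference was -0.75 (adjusted p = 0.196), and 0.06 without control replicate 4. Unloaded libraries held 2.999 to 4.88 CPM in WT and 3.32 to 4.49 CPM in Notch2-mKO, with differences from control of -0.10 and -0.45 (SE 0.34 each).

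Myc held 1.80, 1.28, 2.21 and 2.72 CPM in WT controls and 2.53, 4.52, 4.31 and 3.01 CPM in WT diabetes. The groups overlapped by 1 library on each side. Myc rose by 0.85 (SE 0.31, adjusted p = 0.0374), a call lost without WT control replicate 1, 2 or 3 or WT diabetes replicate 2 or 3 (differences from 0.68 to 0.90, adjusted p from 0.0593 to 0.125) and kept with the trend removed (1.06, adjusted p = 0.0169). In Notch2-mKO diabetes it held 2.55, 2.73, 1.76 and 3.59 CPM against 2.62, 2.06, 2.23 and 1.53 CPM in controls, a difference of 0.33 (SE 0.31, adjusted p = 0.567). Unloading left Myc spread around its control level, at 1.48, 3.86, 1.90 and 2.98 CPM in WT (0.36, SE 0.31) and 1.02, 2.14, 1.35 and 2.45 CPM in Notch2-mKO (-0.28, SE 0.31). Both groups overlapped their controls.

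Some libraries were the highest or lowest of their group for several members. Notch2-mKO control replicate 4 was the highest of its group for Fos, Fosb, Egr1 and Ier2 and the lowest for all 3 Nr4a receptors and Myc. WT control replicate 4 was the highest of its group for 6 members (Fos, Fosb, Junb, Egr1, Ier2 and Myc), and WT control replicate 3 the lowest for 6. Notch2-mKO unloading replicate 4 was the highest for 7, Nr4a1 and Nr4a3 among them as well as Fos, Fosb, Jun, Junb and Myc. Across the 24 libraries, the deviations of log2(CPM + 0.5) from the group mean were most closely related for Fos and Junb, with Pearson's r = 0.80 (permutation p = 0.00124, adjusted p = 0.0558 over the 45 pairs of members) and Spearman's rho = 0.70 (permutation p = 0.00587, adjusted p = 0.0880). Without the 2 libraries farthest in Fos, r was 0.72. Fos and Ier2 followed with r = 0.72 (permutation p = 0.00417, adjusted p = 0.0938), rho = 0.67 (permutation p = 0.00366, adjusted p = 0.0868) and r = 0.57 without those 2 libraries. Fos and Egr1 had r = 0.66 (permutation p = 0.00697, adjusted p = 0.105), rho = 0.56 (permutation p = 0.0116, adjusted p = 0.130) and r = 0.46 without them. No pair passed the adjustment. Time of day, the interval from death to freezing and other conditions of collection are not in the labels, and their part was not tested.

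**Figure D3:**
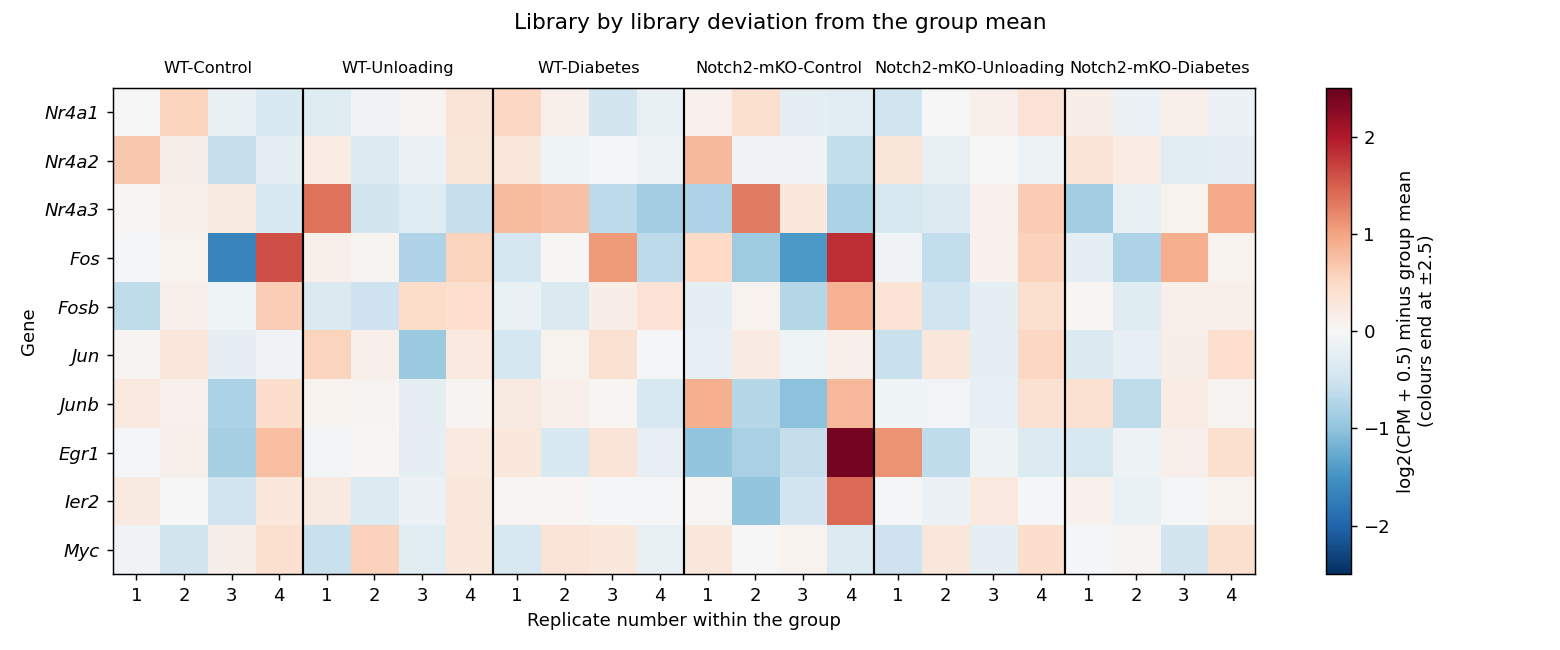
Deviation of each library from its group mean, in log2(CPM + 0.5), with genes as rows and the 4 replicates of each group as columns; red is above and blue below the mean. Notch2-mKO control replicate 4 is red for Fos, Egr1 and Ier2, and WT control replicate 3 is blue for the same genes.

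Genotype was compared within each treatment and in the response to it. No member passed in Notch2-mKO against WT in controls, unloading or diabetes (0 of 10 in each, with 0% of all genes called in each), and none had an unadjusted p under 0.05, where 5.33%, 10.3% and 5.30% of all genes did, in that order. DESeq2 called 0 members in each as well. The difference between the genotypes' responses, an interaction term, also called 0 of 10 members and 0% of genes for unloading and for diabetes, with 0 members at an unadjusted p under 0.05, where 14.4% of all genes lay for unloading and 8.75% for diabetes. The intervals are wide for the variable genes: for the response of Nr4a3 to diabetes, Notch2-mKO minus WT was -0.77 (95% interval -2.53 to 0.99), and for its response to unloading -1.64 (-3.60 to 0.32). They are narrower for Nr4a1, at 0.17 (-0.42 to 0.76) for unloading and 0.18 (-0.41 to 0.77) for diabetes, and for Jun in diabetes, at -0.27 (-0.95 to 0.41). A call in WT and none in Notch2-mKO, as for Jun, Junb and Myc in diabetes, was therefore not shown to be a difference between genotypes.

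Other primary response genes and their feedback regulators moved in both directions. Of 34 tested, 6 rose and 9 fell in WT unloading (median log2 difference -0.40) and 2 rose and 3 fell in Notch2-mKO unloading (median -0.20). Over all genes 18.4% rose and 16.3% fell in the first and 4.11% and 3.2% in the second. Removing the trend gave 7 higher and 5 lower in WT, 9 of the 15 calls being kept, and 3 and 3 in Notch2-mKO. Zfp36, which promotes the decay of short-lived mRNAs, fell by 1.34 (SE 0.30, adjusted p = 0.00125) in WT, from 15.6 ± 4.5 to 6.17 ± 1.2 CPM (SD, 4 libraries each), and by 1.203 (adjusted p = 0.0181) in Notch2-mKO. The endosomal GTPase Rhob fell by 1.01 (adjusted p = 7.95e-05) and 0.78 (adjusted p = 0.00914). The stress genes Gadd45a and Gadd45b rose by 1.61 (adjusted p = 0.00118) and 1.07 (adjusted p = 0.00143) in WT. Cyr61, a matricellular protein, rose by 1.78 (adjusted p = 0.0171) in Notch2-mKO and Csrnp1 fell by 1.05 (adjusted p = 0.0190).

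In WT diabetes 6 of the 34 rose and 5 fell (median 0.17), and in Notch2-mKO diabetes 2 rose and 0 fell (median 0.12), beside 17.8% and 15.5% of all genes in WT and 3.05% and 2.54% in Notch2-mKO. In WT 8 were higher and 2 lower with the trend removed. Klf6, a zinc finger factor, rose by 1.48 (adjusted p = 0.00028) in WT and by 0.92 (adjusted p = 0.0468) in Notch2-mKO, and Nfkbia, the inhibitor of NF-kB, rose by 0.73 (adjusted p = 0.0464) in Notch2-mKO. With the trend removed, Klf6 in Notch2-mKO had an adjusted p of 0.0817. Plk3 fell by 2.15 (adjusted p = 0.000447) and Gadd45a and Gadd45g rose by 1.54 (adjusted p = 0.00185) and 1.07 (adjusted p = 0.00333) in WT. Diabetes set directly against unloading gave 7 higher and 0 lower of 34 in WT and 7 higher and 1 lower in Notch2-mKO, beside 2.31% and 1.24% of all genes in WT and 1.95% and 1.12% in Notch2-mKO. The 7 higher calls were kept in each with the trend removed. Rhob was higher by 1.15 and 1.08 (adjusted p = 0.000398 and 0.000794), Zfp36 by 1.60 and 1.56 (adjusted p = 0.00335 and 0.00394) and Gadd45g by 1.09 and 1.40 (adjusted p = 0.0193 and 0.00394).

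**Figure D4:**
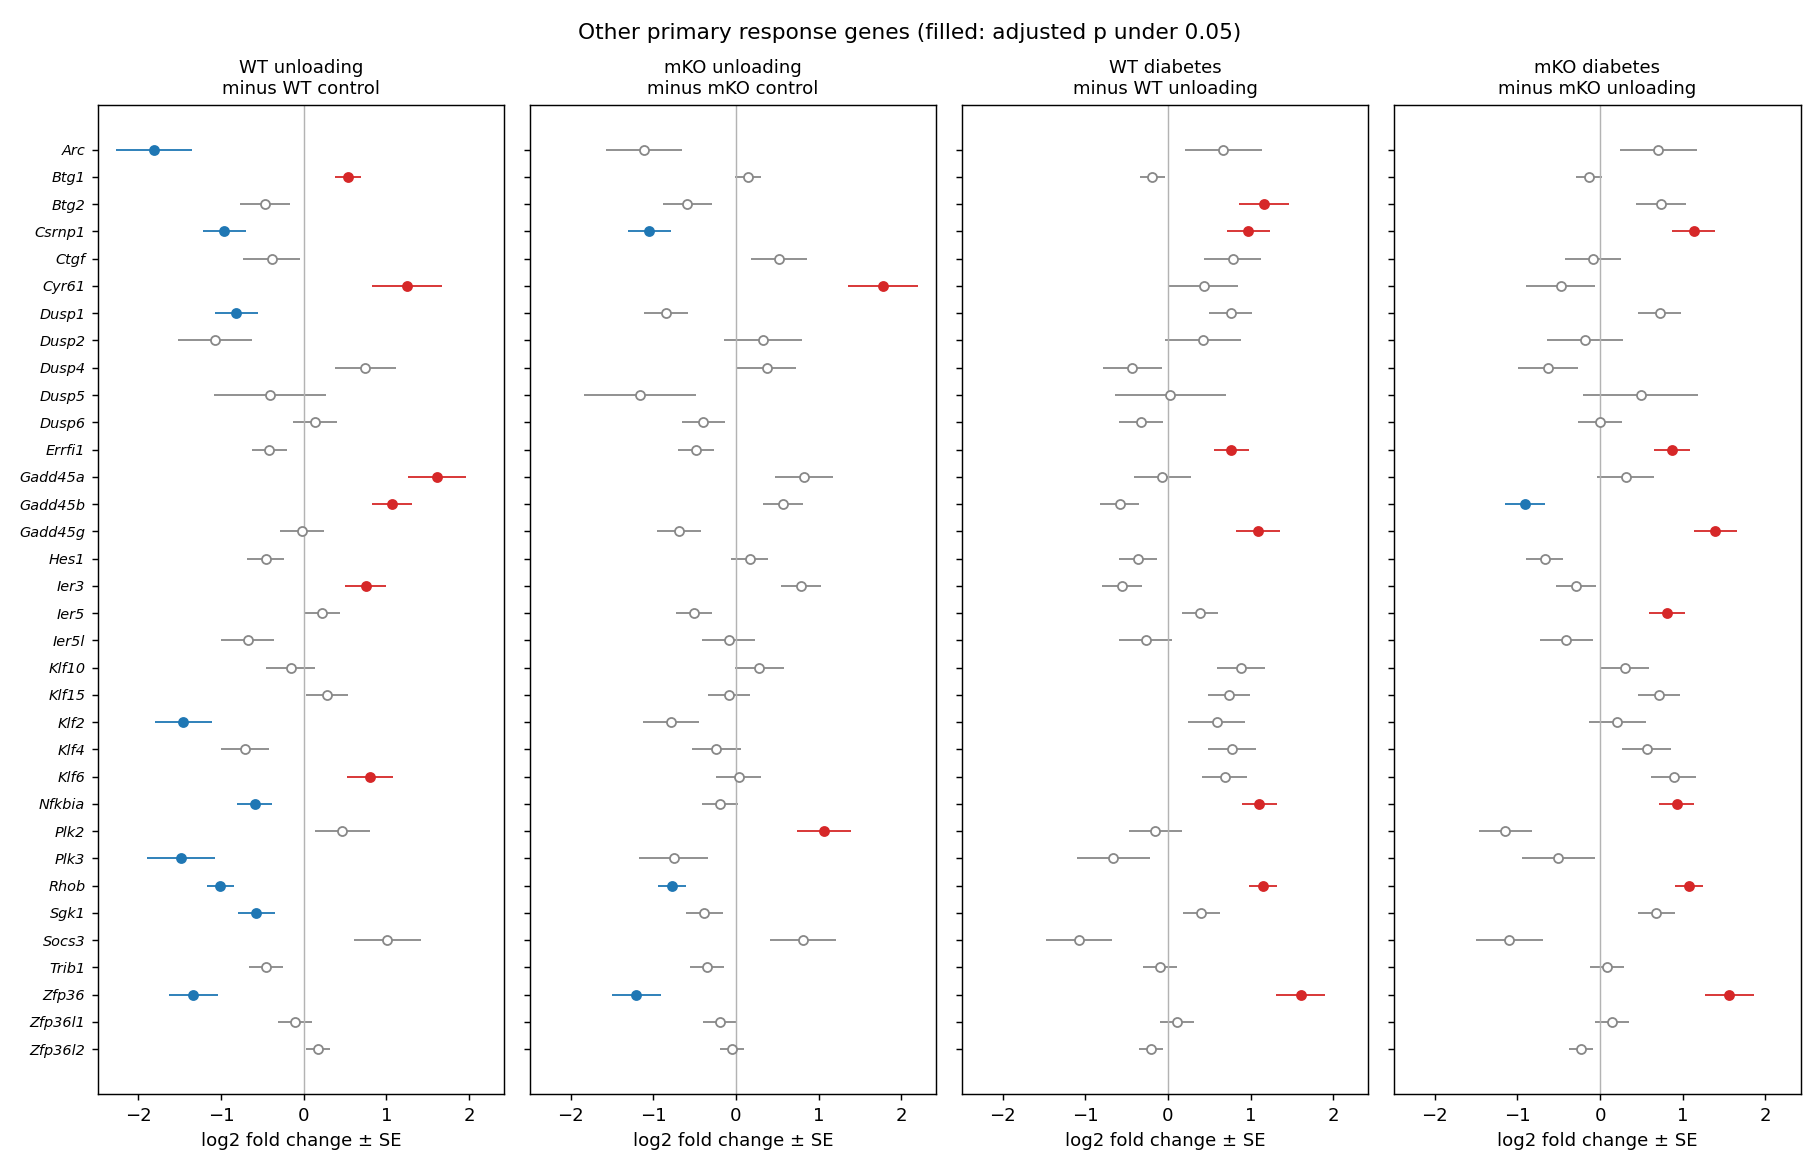
Fitted log2 fold change ± SE of 34 other primary response genes in unloading against control and in diabetes against unloading, for each genotype; filled red symbols rose and filled blue ones fell with an adjusted p under 0.05, open grey ones did not pass. Zfp36 and Rhob are blue in both unloading panels and red in both panels of diabetes against unloading.

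Among 9 tested AP-1 partners, 1 rose and 3 fell in WT unloading, 1 fell in Notch2-mKO unloading, and 1 rose in diabetes in each genotype. Over all genes, 18.4% rose and 16.3% fell in WT unloading, and 17.8% and 15.5% in WT diabetes. In Notch2-mKO the shares were 4.11% and 3.2% in unloading and 3.05% and 2.54% in diabetes. Fosl2, a Fos relative, fell in unloading by 0.81 (adjusted p = 0.0156) in WT and 0.87 (adjusted p = 0.0395) in Notch2-mKO, and Jund fell by 0.63 (adjusted p = 0.00347) in WT, from 59.0 to 38.1 CPM. The small Maf protein Maff rose in diabetes by 0.73 (adjusted p = 0.0318) and 0.88 (adjusted p = 0.0448). With the trend removed 2 of the 9 were higher and 1 lower in WT unloading, and only Fosl2 kept its call. There the Jund difference was -0.21 (adjusted p = 0.363), Jdp2 went from -0.56 to -0.24 (adjusted p = 0.377), Atf2 turned from 0.44 to -0.17 (adjusted p = 0.288), and Mafg and Mafk passed at 0.60 and 0.58 (adjusted p = 0.00942 and 0.0445). Fosl2 in Notch2-mKO then had an adjusted p of 0.0576. Of the 3 tested genes of the Egr family and its corepressors, Nab2, which binds and represses Egr1, fell by 0.85 (adjusted p = 0.0190) in WT diabetes, and none passed elsewhere; with the trend removed its adjusted p was 0.189.

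Upstream factors split evenly in WT, with 6 of 28 higher and 6 lower in each treatment, against 0 higher and 2 lower in Notch2-mKO unloading and 1 higher and 0 lower in Notch2-mKO diabetes. In each WT comparison 4 were higher and 4 lower with the trend removed. Of the earlier calls, 5 were kept in WT unloading and 6 in WT diabetes. Over all genes, 18.4% rose and 16.3% fell in WT unloading, and 17.8% and 15.5% in WT diabetes. In Notch2-mKO the shares were 4.11% and 3.2% in unloading and 3.05% and 2.54% in diabetes. The same shares stand beside the cAMP and CREB responsive genes below. Srf, which binds CArG boxes in immediate early promoters, fell by 0.85 (adjusted p = 1.1e-05) in WT unloading, 0.70 (adjusted p = 0.000122) in WT diabetes and 0.41 (adjusted p = 0.0375) in Notch2-mKO unloading. Its partner Elk4 rose by 1.76 and 1.81 (adjusted p = 5.49e-05 and 5.59e-05) in WT unloading and diabetes, and Elk1 fell by 0.52 and 0.80 (adjusted p = 0.000559 and 1.34e-05). Creb1 rose by 1.12 (adjusted p = 0.000125) in WT diabetes, but by only 0.33 (adjusted p = 0.0941) with the trend removed. Of 8 cAMP and CREB responsive genes (Dusp1 is also among the 34), 2 rose and 1 fell in WT unloading and 3 rose in WT diabetes, with 0 called in Notch2-mKO in either. With the trend removed, 2 were higher in WT diabetes, and 1 was higher and 1 lower in WT unloading. In WT unloading only 1 call, the rise of Pde4d, was kept. Dusp1 lost its call there (-0.59, adjusted p = 0.0935), and the 1 lower gene had not passed before. Pde4d, a cAMP phosphodiesterase, rose by 1.15 (adjusted p = 0.000252) in WT diabetes and by 0.59 (adjusted p = 0.0323) in WT unloading, and the salt-inducible kinase Sik1 rose by 0.78 (adjusted p = 0.0252) in WT diabetes.

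Of 9 tested Myc partners, 2 rose and 1 fell in WT unloading and again in WT diabetes, and 1 rose in Notch2-mKO diabetes. Mxi1, a Max-binding repressor that opposes Myc, rose by 0.61 (adjusted p = 0.00208), 0.999 (adjusted p = 2.51e-05) and 0.66 (adjusted p = 0.0129) in these comparisons, in that order. Of the calls in each of the 3, only that of Mxi1 was kept with the trend removed. Of 18 metabolic genes reported downstream of Nr4a receptors in muscle, 5 rose and 7 fell in WT diabetes, 3 rose and 1 fell in Notch2-mKO diabetes, 3 rose and 5 fell in WT unloading and 0 rose and 2 fell in Notch2-mKO unloading. Removing the trend gave 5 higher and 4 lower in WT diabetes and 1 higher and 3 lower in WT unloading. Over all genes, 17.8% rose and 15.5% fell in WT diabetes, and 18.4% and 16.3% in WT unloading. In Notch2-mKO the shares were 3.05% and 2.54% in diabetes and 4.11% and 3.2% in unloading. The same shares stand beside the Myc partners. The glucose transporter Slc2a4 fell by 1.01 (adjusted p = 3.65e-05) in WT diabetes and by 0.70 (adjusted p = 0.0122) in Notch2-mKO diabetes. Pdk4, the kinase that shuts off pyruvate dehydrogenase, went from 191 to 1312 CPM in WT diabetes, a rise of 2.78 (adjusted p = 0.000178), and rose by 1.68 (adjusted p = 0.0401) in Notch2-mKO. Fbp2 and the fatty acid transporter Cd36 rose in both, by 1.46 and 1.48 in WT (adjusted p = 2.03e-05 and 7.13e-06) and by 1.10 and 0.78 in Notch2-mKO (adjusted p = 0.00541 and 0.0166). With the trend removed, Pdk4 and Cd36 in Notch2-mKO diabetes had adjusted p of 0.0683 and 0.119. In unloading, Ckmt2, the mitochondrial creatine kinase, fell by 1.39 (adjusted p = 0.000136) in WT and 1.04 (adjusted p = 0.0139) in Notch2-mKO.

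The genes whose levels over the 24 libraries were most like a member's were found among genes that averaged 2 CPM or more. For Nr4a1 they were Zfp36 (Pearson's r = 0.88), the MAP kinase phosphatase Dusp1 (0.84), the elastic fibre gene Fbln5 (0.83) and Apol6 (0.83). Zfp36 averaged 6.17 CPM in unloading of either genotype and between 14.2 and 18.7 CPM in the other 4 groups. For Nr4a3 they were Abra, an actin-binding activator of SRF signalling (0.89), Nudt18 (0.87), the transcription factor Cebpb (0.86) and Ech1, an enzyme of fatty acid oxidation (0.85). Cebpb averaged 63.2 ± 9.63 CPM in WT diabetes and 55.8 ± 8.80 CPM in Notch2-mKO diabetes, and between 22.3 and 28.6 CPM in the other groups (SD, 4 libraries). For Fos they were Fam101b (0.80), Zfp36l1 (0.79), Nedd9 (0.73) and Pdgfb (0.72), and for Egr1 Sc4mol (0.73), Rnf122 (0.73), Fam101b (0.69) and Cd44 (0.66). The libraries share treatment, depth and the base composition trend, so these values describe likeness of pattern only.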

How the data were processed

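RNA from 24 gastrocnemius samples was sequenced. The authors deposited 4 tables of RefSeq gene models, per the file headers, each holding estimated counts per gene (fractional), and log2 values that the authors normalized within each table. The build is mm10, per the submitters' processing notes. Alignment and quantification software was not given in the sources used here. Control columns of each genotype occur in 2 tables and were identical (8 columns), so they were used once. Groups and replicate numbers come from the sample titles.

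Counts were rounded to whole numbers and all 24 libraries entered 1 fit with a coefficient per group in edgeR 4.0.16 (TMM scaling, filterByExpr, quasi-likelihood test) in R 4.3.3. P-values were adjusted by the Benjamini-Hochberg method over the 13048 genes tested, and a call is an adjusted p under 0.05. Standard errors come from the fit's weights and quasi-dispersions, and intervals cover 95%. Levels are TMM-scaled CPM, divided by the longest GENCODE transcript's length where genes are compared. The 95% intervals and the 3-count limit cover sampling and fit error only. Genes were matched by symbol, and coordinates and promoters are RefSeq's for GRCm38.p6. Ier2 and Myc had no promoter entry, and no window of Egr1 was searched. The script was tested on simulated counts.

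The members and lists were chosen with earlier results of these data known. Named genes are the 10 members, up to 4 called genes with the smallest p per list and comparison, and the 4 genes most correlated with Nr4a1, Nr4a3, Fos and Egr1. The alternatives were upper quartile scaling, DESeq2 1.42.0, other filters, only the compared groups, a replicate block, a base composition and length trend removed (GC known for 95.4% of genes), limma 3.58.1 on the authors' log2 values, and leaving out each library. Over all genes tested, same-numbered libraries did not deviate together on average, so numbers were not taken as pairing. Their mean correlation was -0.01, beside 0.004 for different numbers. Single same-numbered pairs ran from -0.43 to 0.55, with 12 of 60 over 0.1. This check was not run on the members alone. Fos was highest in replicate 4 of both control and both unloaded groups, and in replicate 3 of both diabetic groups. Whether same-numbered libraries shared a condition was not tested. A gene of the upstream list is not reported here by name.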

Additional observations from a re-analysis of the deposited data

Results flagged for a closer look

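Of 60 sets of 4 libraries (10 genes in 6 groups), 3 held a library far from the others by Dixon's ratio, which chance alone would give in about 1 set in 20. Nr4a3 measured 2.42 CPM in WT unloading replicate 1 against 0.271 to 0.419 CPM in the other 3. Junb measured 5.90 CPM in WT unloading replicate 3 against 7.32 to 7.49 CPM. Egr1 measured 19.98 CPM in Notch2-mKO control replicate 4 against 1.45 to 2.06 CPM.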

How the results depend on the processing

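No member's called difference changed sign under any setting run. The number of members called in WT unloading against control was 1, and it was 0 with the base composition and length trend removed, 0 with the replicate block and the trend removed together (added after seeing the data), 2 with only the compared groups in the fit, 0 with limma on the deposited log2 table, and 0 to 2 with 1 library left out. In WT diabetes against control it was 5. It was 3 with the trend removed, 3 with limma and 2 to 5 with 1 library left out. Each of these counts includes Nr4a3, whose difference there was among the values used to choose the genes and is only described. In Notch2-mKO diabetes against control the number of members called was 0. It was 1 with no filter on low counts, 2 with only the compared groups, 1 with limma and 0 to 1 with 1 library left out. In WT diabetes against unloading it was 1, and 0 with only the compared groups, 2 with DESeq2 and 0 to 2 with 1 library left out. In Notch2-mKO diabetes against unloading it was 1, and 2 with the trend removed, 2 with the replicate block and the trend removed, 2 with only the compared groups, 2 with DESeq2 and 1 to 2 with 1 library left out. The cause of these changes was not tested beyond what each setting alters. The replicate block alone left all counts as they were (1 in WT unloading, 5 in WT diabetes, 0 in both Notch2-mKO comparisons with control and 1 in each comparison of diabetes with unloading); the numbers are labels only. Limma compared groups within each table, and joined separately normalized tables only for the difference between the genotypes' responses. Its counts leave out Nr4a2 and Fosb, which sit at the floor of the authors' log2 values. The stricter filter on low counts left out Nr4a2 and Fosb as well. Nr4a2 and Fosb, at under 2 CPM in every library, are limited by depth.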

Other observations

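Jun was added to the search for genes of like pattern after its values were seen. The 4 genes with the highest Pearson correlation to Jun over the 24 libraries were Trim63, the muscle ubiquitin ligase MuRF1 (r = 0.83), Klhl38 (0.78), Sox4 (0.78) and Klf15 (0.77). Trim63 averaged 193 ± 25.5 CPM in WT controls and 596 ± 276 CPM in WT diabetes, and 238 ± 49.6 and 428 ± 124 CPM in Notch2-mKO (SD, 4 libraries each). Its WT unloading libraries ranged from 203 to 688 CPM and those of Notch2-mKO unloading from 133 to 822 CPM, so that the spread within an unloaded group exceeded the difference between the control and diabetic means.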
